A study of Sus scrofa with 12 samples.

Results

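Genes that write, remove and read marks on chromatin or move nucleosomes were followed in in vitro matured oocytes of Sus scrofa. They are the 68 genes whose platform symbol starts with DNMT, KAT and a number, SETD, PRMT, HDAC, SIRT, KDM, SMARC, CHD and a number, or BRD and a number, out of 11913 genes measured. The array holds 149 features for them: 35 of the 68 genes had 1 feature and 33 had several, up to 10 for CHD2, whose values were averaged. By family there were 2 DNA methyltransferases (DNMT), 3 histone acetyltransferases (KAT), 9 SET-domain genes (SETD), 5 arginine methyltransferases (PRMT) and 8 zinc-dependent deacetylases (HDAC). The others were 6 sirtuins (SIRT), 10 lysine demethylases (KDM), 13 SMARC remodelling subunits, 9 CHD remodellers and 3 bromodomain readers (BRD). KAT7 and KAT8 fell outside the rule because the platform lists them by the older symbols MYST2 and MYST1.

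Chromatin marks are laid down by writers (DNA methyltransferases, acetyltransferases and protein methyltransferases), taken off by erasers (deacetylases and demethylases) and bound by readers such as bromodomain proteins, while remodelling enzymes use ATP to slide or evict nucleosomes. In the growing oocyte these enzymes set the maternal DNA methylation pattern and silence transcription, and at meiotic maturation deacetylases strip acetyl groups from histones. The matured oocyte stores mRNAs of many of them for the embryo, which remodels both parental genomes before its own transcription begins.

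The oocytes came from crossbred prepubertal gilts, belonged to a class named SM or LG in the labels (not spelled out there), and matured for 44 h in TCM199 medium holding gonadotrophins (LH and FSH), EGF and follicular fluid of pigs at 10%, after which hyaluronidase and a pipette removed the cumulus cells. The 4 groups of 3 arrays were SM GDNF and LG GDNF, with glial cell line-derived neurotrophic factor as the added compound, and SM control and LG control, with none. The dose of GDNF is not given in the sources used here. On each array the RNA of a pool of oocytes, amplified in vitro from poly(A) tails, was set against 1 shared reference RNA made from oocytes of the 4 groups together. The labels give 2 as the number per pool (16 for the reference), whereas the series' design text speaks of 3 replicates per array and 9 separately collected ones per condition. This difference was not resolved and enters no calculation. The p-values measure the spread between pools, including anything that pools of the same number may share. A feature's signal above background could not be checked from ratios, and neither could the share of other cell types.

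Each of the 3 slides carried 1 array of every group, with the sample in Cy3 on slides 2 and 3 and in Cy5 on slide 1. Whether the deposited ratios of slide 1 were turned to match is not given in the sources used here, nor is whether a positive ratio means more RNA in the sample or in the reference. Differences between groups were therefore fitted on the 8 arrays of slides 2 and 3, with slide 1 given as its own values. Each is a size of a difference between deposited log ratios, taken as base 2, with no direction of expression. Within slides 2 and 3 these comparisons set a pool 2 against a pool 3, in opposite order on the 2 slides. Anything that same-numbered pools share, which was not tested, would thus enter differences by slide and counts of same side. All arrays were centred and scaled alike, with a median absolute ratio of 0.267 on each and medians between -0.011 and 0.022, and over all features the 8 arrays correlated at 0.15 to 0.84. LG control 2 (slide 3) stood apart, with an SD over all features of 0.87 against 0.45 to 0.55 on the other 11 arrays. It held 489 features with a ratio over 4, against 0 to 9 on each of the other 11. Among the 68 genes its SD was 0.88 against 0.36 to 0.62. It held the value farthest from the median of the 8 arrays in 26 of the 68 genes, or 38.2%, against 21% of all genes. LG GDNF 3, also on slide 3, did so in 11 of the 68 genes, or 16.2%, against 15.2% of all genes. The oocyte markers (13 measured) had medians of 0.76 on LG GDNF 3 and 0.52 on LG control 2. The cumulus and granulosa markers (15 measured) had medians of -0.22 on LG GDNF 3 and -0.16 on LG control 2. On the other 6 arrays of slides 2 and 3 the oocyte medians lay between -0.30 and 0.33 and the cumulus medians between -0.016 and 0.21. The part of these differences in the results was not tested. The word Clean, which the labels do not explain, stands in 2 titles, those of LG GDNF 1 and LG GDNF 2.

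**Figure D1:**
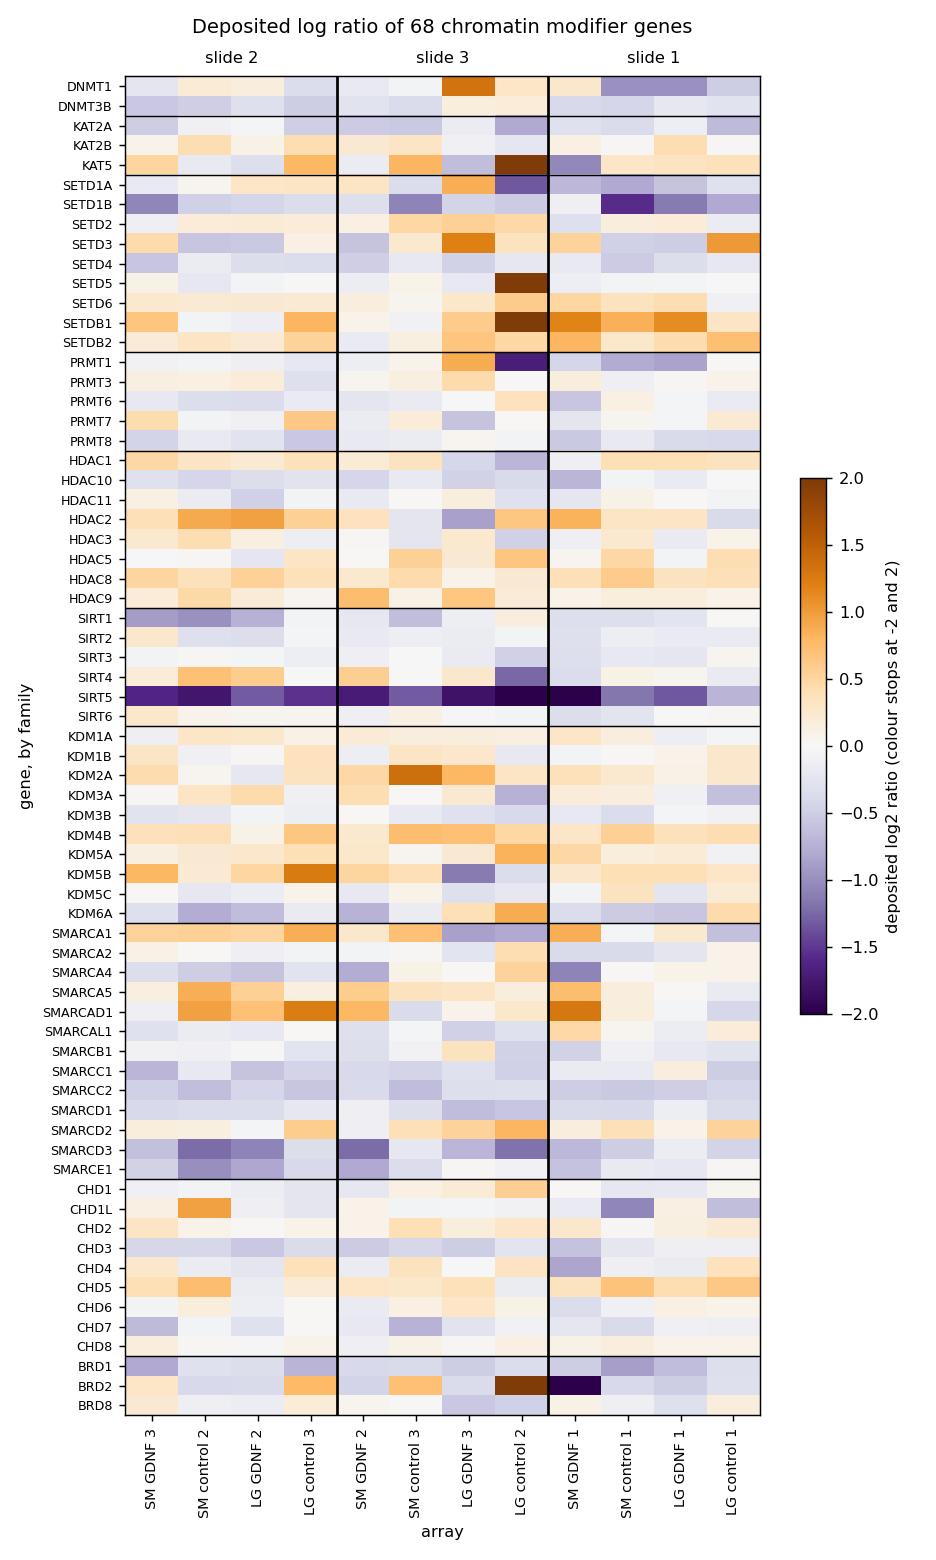
Deposited log2 ratio of each of the 68 genes (rows, by family, separated by lines) on the 12 arrays (columns, by slide), with orange above 0, purple below 0 and colours that stop at -2 and 2. The column of LG control 2 holds the most saturated cells, with SETD5 at 3.28 and SIRT5 at -2.63, and SIRT5 is purple on all 12 arrays.

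No chromatin modifier passed the test in any of 5 comparisons (limma with the 4 groups and the slide, Benjamini-Hochberg adjustment over all 11913 genes, threshold 0.05), and 0 of the 11913 genes did. The smallest adjusted p of a member was 0.884, for KAT5 and others of the LG comparison of GDNF and control. The members whose unadjusted p was under 0.05 numbered 0 of 68 for GDNF against control in SM, 8 in LG, 4 between LG and SM controls, 1 between LG and SM with GDNF, and 4 for the interaction, against 1.18%, 5.13%, 4.48%, 1.79% and 3.44% of all genes in this order. In LG the 8 members make 11.8%, so there the share lay above that of all genes, while with GDNF (1.47%) it lay close to it. In controls and in the interaction the 4 members make 5.88%. With 2 arrays per group the standard errors were wide, with a median over the members of 0.24 for a difference between 2 groups.

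Between LG GDNF and LG control the 8 members were 2 of 3 acetyltransferases (KAT5 and KAT2A), 2 of 5 arginine methyltransferases (PRMT7 and PRMT1), and 1 each of 9 SETD genes (SETDB1), 6 sirtuins (SIRT4), 10 demethylases (KDM3A) and 3 bromodomain readers (BRD2). None was a deacetylase of the HDAC family (0 of 8), a SMARC subunit (0 of 13), a CHD remodeller (0 of 9) or a DNA methyltransferase (0 of 2). Beside the 5.13% of all genes, families of 2 to 13 members are small, and differences between families were not tested. KAT5, BRD2, SETDB1 and PRMT7 had lower deposited ratios in LG GDNF than in LG control (4 of 68, against 2.21% of all genes), and KAT2A, SIRT4, KDM3A and PRMT1 had higher ones (4 of 68, against 2.92%). Differences lay on the same side on slides 2 and 3 in 44 of the 68 genes, or 64.7%, against 53.4% of all genes. In 8 members (11.8%) the size was at least 0.5 on both slides and on the same side, against 5.88% of all genes. The fitted difference over the members had a median of -0.079, against -0.027 over all genes, with -0.013 without LG control 3 and -0.046 without LG GDNF 2, and its size had a median of 0.19 over the members, against 0.18 over all genes. Without LG control 2, and likewise without LG GDNF 3, 0 of 68 members had an unadjusted p under 0.05, against 3.35% and 1.6% of all genes. Without SM control 2 or SM control 3, which enter through the slide term and the estimate of spread, the number of members was also lower. The share of all genes was not lower there. On all 12 arrays the number of members was 10 of 68 as deposited, against 7.57% of all genes, and 5 with slide 1 turned in sign, against 4.79%.

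**Figure D2:**
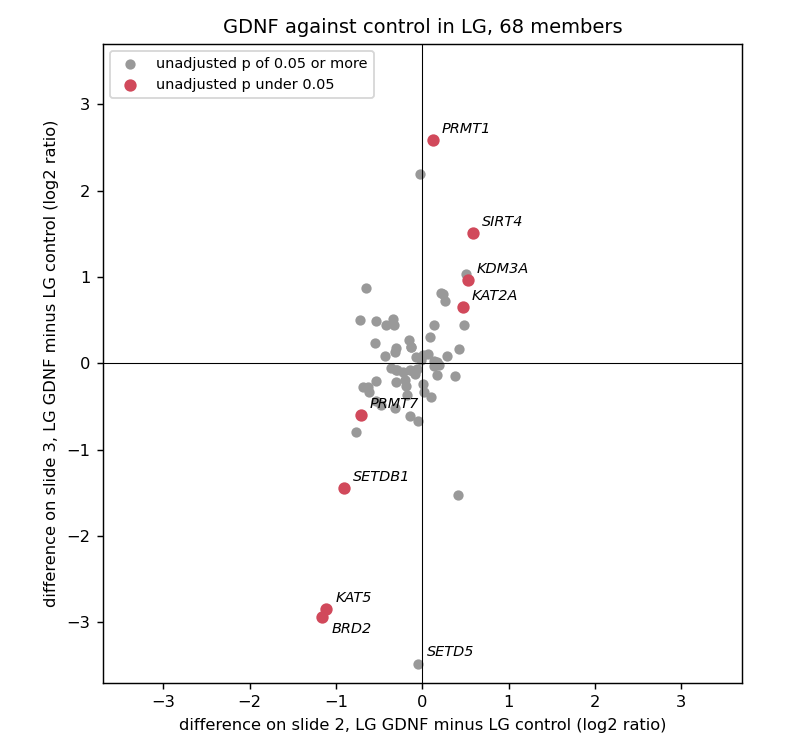
Difference in deposited log2 ratio between LG GDNF and LG control on slide 2 (x axis) and slide 3 (y axis) for the 68 genes, with the 8 of unadjusted p under 0.05 in red. KAT5 and BRD2 lie together at the lower left, and PRMT1 and SETD5 have sizes of 2.58 and 3.48 on slide 3 but 0.12 and 0.052 on slide 2.

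Among the acetyltransferases, KAT5, the MYST-family enzyme of the NuA4 complex in transcription and DNA repair, had the smallest p of the members in this comparison. Its deposited ratios on slides 2 and 3 were -0.32 and -0.64 in LG GDNF, against 0.79 and 2.21 in LG control. They were 0.50 and -0.15 in SM GDNF, against -0.18 and 0.80 in SM control. LG control 2 was thus the highest of the 8 arrays, and LG control lay above LG GDNF without overlap. The size of the difference in LG was 1.98 (standard error 0.53, unadjusted p = 0.0095), with an adjusted p in limma of 0.884. It was 1.27 without LG control 2. On slide 1 the 2 LG arrays were close, at 0.32 in LG GDNF, against 0.37 in LG control, a size of 0.049.

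KAT2A, the catalytic subunit of the SAGA coactivator, had a smaller but more even difference. On slides 2 and 3 it had -0.032 and -0.15 in LG GDNF, against -0.50 and -0.80 in LG control, and on slide 1 -0.11 in LG GDNF, against -0.66 in LG control. The 3 sizes by slide were 0.47 on slide 2, 0.65 on slide 3 and 0.55 on slide 1. Neither slide 2 nor slide 3 alone thus carried the difference, and slide 1 lay on the same side only as deposited. The fit gave 0.56 (standard error 0.19, unadjusted p = 0.0282) on 8 arrays, between 0.49 and 0.63 with single arrays left out. With all 12 arrays as deposited it was 0.56 (unadjusted p = 0.00295, adjusted p = 0.646 in limma), and with slide 1 turned in sign 0.19 (unadjusted p = 0.406). In SM the ratios were -0.51 and -0.53 with GDNF, against -0.087 and -0.54 in control. The third acetyltransferase, KAT2B, a close relative of KAT2A, had 0.11 and -0.093 in LG GDNF, against 0.42 and -0.22 in LG control, and its groups overlapped. KAT7, outside the rule only by its older platform symbol, had ratios of -0.16 and -0.14 in LG GDNF, against 0.42 and 0.60 in LG control, a size of 0.66. On slide 1 it had 0.20 in LG GDNF, against -0.082 in LG control. KAT8, outside the rule for the same reason, had -0.43 and -0.40 in LG GDNF, against 0.046 and -0.082 in LG control, a size of 0.40. Its smallest unadjusted p in limma in any comparison was 0.304, and that of KAT7 was 0.010.

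BRD2, a reader of acetylated histones of the BET family, followed KAT5. It had -0.39 and -0.36 in LG GDNF, against 0.77 and 2.58 in LG control, and 0.29 and -0.44 in SM GDNF, against -0.40 and 0.71 in SM control. The highest array was again LG control 2. The size in LG was 2.05 (standard error 0.59, unadjusted p = 0.0131), 1.21 without LG control 2, and 0.20 on slide 1. BRD2 was also among the 4 members with an unadjusted p under 0.05 between LG and SM controls, which share the LG control arrays, with a size of 1.52 (standard error 0.59, unadjusted p = 0.0417). That size was 0.68 without LG control 2, 2.35 without LG control 3 and 0.092 on slide 1. Across the 8 arrays, after each slide's mean was taken off, BRD2 and KAT5 correlated at r = 0.98, and without LG control 2 and LG GDNF 3 at 0.99 over 6 arrays. One pair, KDM3A with SIRT4, was higher (0.99), but had r = 0.069 on slide 1. The BRD2 and KAT5 pair was picked after the values were seen, among 2278 pairs of members, of which 18 exceeded 0.9. On the 4 arrays of slide 1 its r was 0.998, carried by SM GDNF 1, where BRD2 was at -2.36 and KAT5 at -1.03. The values of slide 1 had also been seen when this pair was singled out, so that r is no independent check. The other 9 of the 10 highest pairs had r on slide 1 between -0.74 (HDAC1 with SMARCA1) and 0.98 (CHD3 with KAT5). These correlations describe arrays that share a reference and, in groups of 4, a slide. The other bromodomain genes had smaller sizes in LG, 0.19 for BRD8, a NuA4 subunit, and 0.11 for BRD1. BRD8 had -0.14 and -0.55 in LG GDNF, against 0.17 and -0.47 in LG control.

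**Figure D3:**
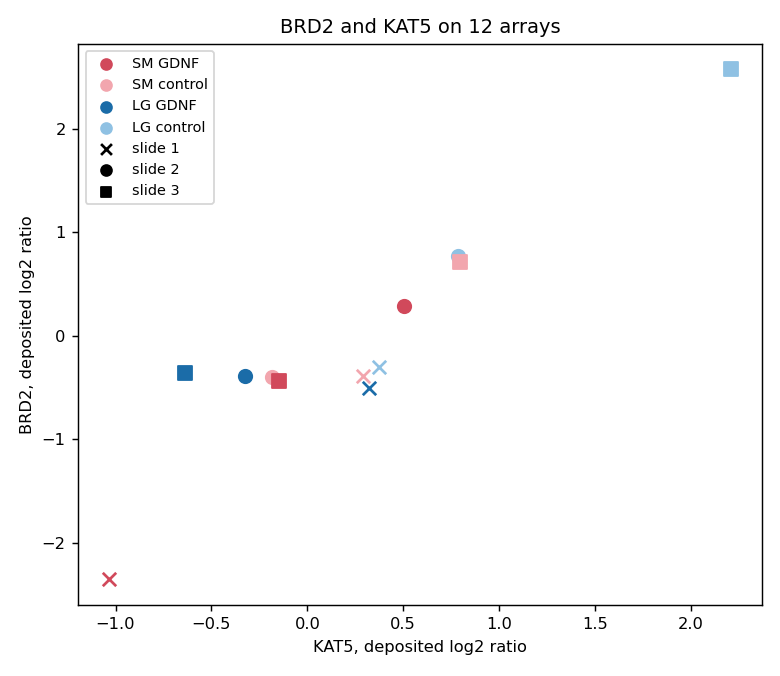
Deposited log2 ratio of KAT5 (x axis) and BRD2 (y axis) on each of the 12 arrays, coloured by group, with the slide given by the marker. LG control 2 (square at the upper right) and SM GDNF 1 (cross at the lower left) hold the highest and lowest values of both genes.

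Among the SET-domain genes was SETDB1, which lays down a repressive histone mark and silences retroelements. It had -0.11 and 0.59 in LG GDNF, against 0.80 and 2.04 in LG control. In SM it had 0.66 and 0.089 with GDNF, against -0.061 and -0.072 in control, so on slides 2 and 3 both LG control arrays lay above all other arrays of their slide. Its size was 1.18 (standard error 0.43, unadjusted p = 0.0345) for GDNF in LG and 1.49 (standard error 0.43, unadjusted p = 0.014) between LG and SM controls, comparisons that share the LG control arrays. On slide 1 the same 2 differences ran the other way as deposited, with 1.12 in LG GDNF, 0.31 in LG control and 0.86 in SM control. With slide 1 turned in sign the 12-array fit gave 1.06 (unadjusted p = 0.00968) and 1.17 (0.0054), and as deposited 0.52 (0.301) and 0.81 (0.12). The value of SETDB1 thus depends on how slide 1 is read. Without LG control 2 its sizes were 0.58 for GDNF in LG and 0.89 between controls, and without LG control 3 they were 1.78 and 2.09.

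SETD2, the methyltransferase that travels with elongating RNA polymerase, had the second smallest p among members for GDNF in SM. It had -0.11 and 0.11 in SM GDNF, against 0.18 and 0.48 in SM control, and on slide 1 -0.30 in SM GDNF, against 0.16 in SM control. GDNF arrays were below the control array of the same slide on all 3 slides as deposited. The size was 0.33 (standard error 0.17, unadjusted p = 0.105) on slides 2 and 3. In LG the groups were closer, with 0.19 and 0.55 in LG GDNF, against 0.19 and 0.46 in LG control. SETD4 had -0.58 and -0.49 in SM GDNF, against -0.15 and -0.19 in SM control, a size of 0.37 (standard error 0.18, unadjusted p = 0.0866), but the opposite side on slide 1 as deposited (-0.18 in SM GDNF, against -0.52 in SM control). SETD1A, of a complex that methylates promoter histones, had a size in LG of 1.08 (standard error 0.54, unadjusted p = 0.0923), with 2.19 on slide 3 and 0.024 on slide 2. Its relative SETD1B, and SETD3, SETD6 and SETDB2, had sizes of at most 0.42 in the 4 comparisons between groups.

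The widest spread of all members belonged to SETD5, a SET-domain protein, with an SD of 1.19 over the 8 arrays after slide means were taken off. Its ratio was 3.28 on LG control 2 and between -0.21 and 0.11 on the other 11 arrays. One of its 2 features accounts for this, at 6.42 on LG control 2, where the other feature was at 0.14. SETD5 was also the 1 member that passed in a fit with an array left out: without LG control 3, which leaves LG control 2 alone in its group, its adjusted p in limma was 0.0196 for GDNF in LG and 0.0162 between controls. Without LG control 2 its size in LG was 0.11 (adjusted p = 0.971).

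PRMT1, the main producer of asymmetric dimethylarginine, likewise differed on slide 3 and little on slide 2, but its features ran together. The gene had -0.095 and 0.89 in LG GDNF, against -0.21 and -1.70 in LG control, and -0.068 and -0.12 in SM GDNF, against -0.053 and 0.064 in SM control. LG GDNF 3 held the highest and LG control 2 the lowest value of the 8 arrays, and the other 6 lay within 0.28 of each other. All 4 features repeated this, at 1.18, 0.71, 0.45 and 1.22 on LG GDNF 3, against -1.42, -1.61, -2.58 and -1.17 on LG control 2. Their pairwise r over the 8 arrays lay between 0.94 and 0.99. The size in LG was 1.35 (standard error 0.54, unadjusted p = 0.0461), 0.44 without LG control 2, 0.62 without LG GDNF 3, 2.08 without LG GDNF 2 and 2.27 without LG control 3. On slide 1 the difference had a size of 0.86 and the opposite sign as deposited. PRMT7, which forms monomethylarginine, had -0.091 and -0.59 in LG GDNF, against 0.63 and 0.015 in LG control, a size of 0.66 (standard error 0.26, unadjusted p = 0.0447). Here 1 of 3 features dominated, with -0.11 and -1.13 in LG GDNF, against 1.85 and 0.065 in LG control, while the second feature had -0.37 and -0.55 in LG GDNF, against -0.24 and -0.48 in LG control. PRMT3, PRMT6 and PRMT8 had sizes of 0.47, 0.27 and 0.18 in LG.

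Of the DNA methyltransferases, DNMT1 copies methylation onto new strands and DNMT3B sets it de novo. DNMT1 was the 1 member with an unadjusted p under 0.05 between LG and SM oocytes matured with GDNF. It had 0.15 and 1.32 in LG GDNF, against -0.25 and -0.18 in SM GDNF, on slides 2 and 3, a size of 0.95 (standard error 0.36, unadjusted p = 0.0385). LG GDNF 3 was the highest of the 8 arrays, and without it the size was 0.44, whereas without LG GDNF 2 it was 1.46. In controls it had -0.35 and 0.29 in LG control, against 0.20 and -0.056 in SM control. On slide 1 the order was turned as deposited, with -0.98 in LG GDNF, against 0.26 in SM GDNF. The 12-array fit gave 0.22 as deposited (unadjusted p = 0.62) and 1.05 with slide 1 turned (0.00482). The 4 features of DNMT1 did not behave alike, since the third was at 3.29 on LG control 2 where the others were at -1.43, -0.67 and -0.027, and the range of r between features was -0.42 to 0.92. On LG GDNF 3 all 4 were above 0, between 0.62 and 2.15. DNMT3B had -0.31 and 0.16 in LG GDNF, against -0.56 and -0.28 in SM GDNF, a size of 0.34 (standard error 0.21, unadjusted p = 0.151).

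**Figure D4:**
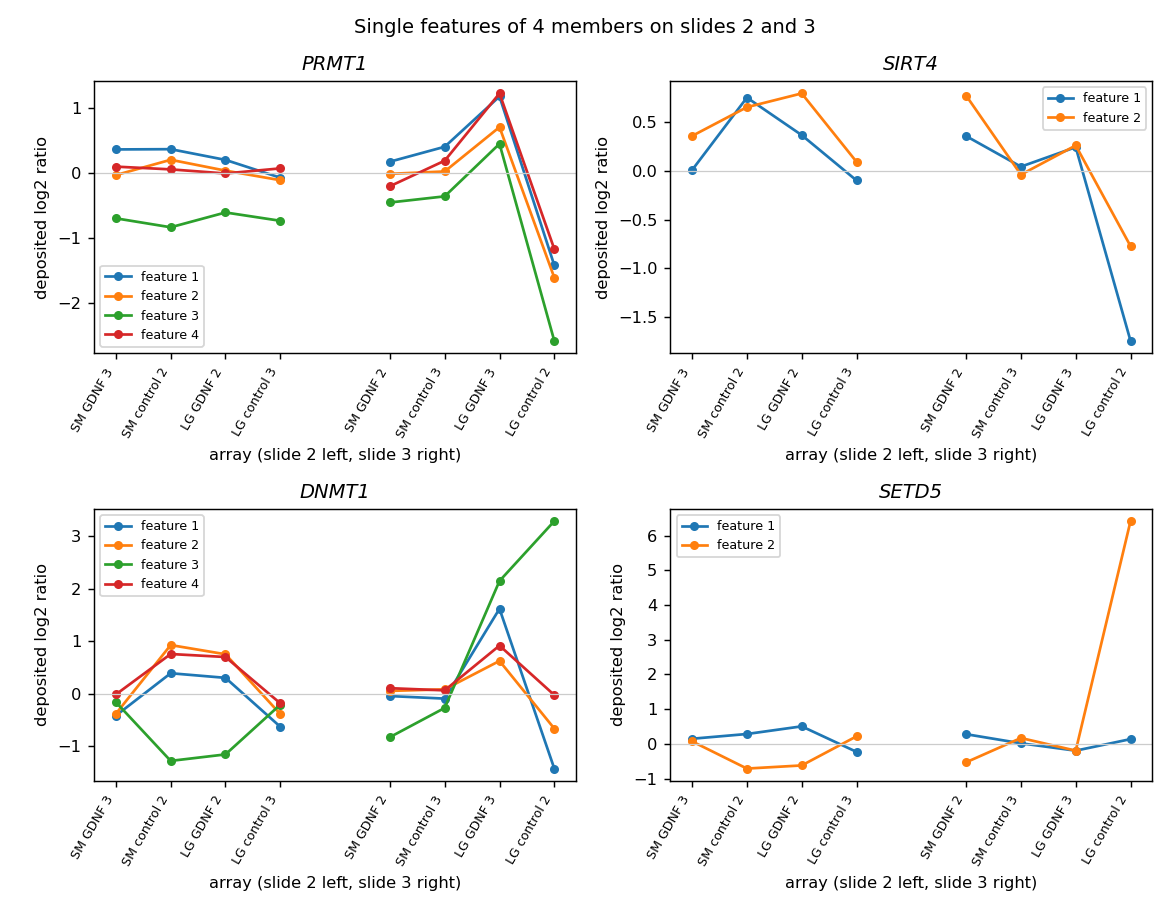
Deposited log2 ratio of every feature of PRMT1, SIRT4, DNMT1 and SETD5 on the 8 arrays of slides 2 and 3, each line joining 1 feature within a slide. The 4 features of PRMT1 run in parallel, the third of DNMT1 departs from the other 3 on LG control 2, and 1 of the 2 features of SETD5 reaches 6.42 there.

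SIRT1, a nuclear NAD-dependent deacetylase, had the smallest p of any member in any comparison, between LG and SM controls. It had -0.051 and 0.15 in LG control, against -0.98 and -0.63 in SM control, on slides 2 and 3, and 0.007 in LG control, against -0.32 in SM control, on slide 1. LG control lay above SM control on all 3 slides as deposited, without overlap. Its size was 0.85 (standard error 0.20, unadjusted p = 0.00578), with an adjusted p of 0.902 in limma. The size was between 0.68 and 1.02 with single arrays left out, and was 1.01 (unadjusted p = 0.0316) without LG control 2 and LG GDNF 3. The 12-array fit gave 0.68 as deposited (unadjusted p = 0.00194) and 0.46 with slide 1 turned (0.0838). With GDNF the arrays were at -0.74 and -0.12 in LG, against -0.90 and -0.21 in SM. Its 2 features were nearly unrelated over the 8 arrays (r = 0.075), although in controls both were higher in LG, with -0.53 and -0.21 for the first in LG control, against -1.37 and -0.75 in SM control. The second had 0.43 and 0.51 in LG control, against -0.58 and -0.50 in SM control.

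SIRT4, which acts in mitochondria rather than on chromatin, as do SIRT3 and SIRT5, had 0.58 and 0.25 in LG GDNF, against -0.00028 and -1.26 in LG control. SM control had 0.71 and 0.0045. LG control 2 was the lowest of the 8 arrays. The sizes were 1.05 (standard error 0.38, unadjusted p = 0.0341) for GDNF in LG and 0.98 (standard error 0.38, unadjusted p = 0.0426) between LG and SM controls, and without LG control 2 they were 0.53 and 0.46, against 1.57 and 1.504 without LG control 3. Both of its features shared the pattern (r = 0.89). SIRT5 had ratios below 0 on all 12 arrays, between -2.63 and -0.72 with a median of -1.58, the farthest from 0 of the 14 members with the same sign on all 12 arrays (20.6%, against 15.4% of all genes). Of these 14, 10 were below 0 and 4 above it, with CHD2, HDAC8, HDAC9 and KDM4B as the 4. Since the dyes of sample and reference were exchanged on slide 1, a constant sign is a difference from the reference in one reading of that slide and a dye effect in the other, and these cannot be told apart. SIRT2, SIRT3 and SIRT6 had sizes of at most 0.30 in the 4 comparisons between groups.

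The 8 zinc-dependent deacetylases had no member with an unadjusted p under 0.05 in any comparison, where 1.18% to 5.13% of all genes had one. HDAC1 and HDAC2 are the catalytic subunits of the NuRD and SIN3 corepressors, and HDAC3 that of NCOR. HDAC1 had 0.21 and -0.42 in LG GDNF, against 0.37 and -0.69 in LG control, and 0.47 and 0.20 in SM GDNF, against 0.30 and 0.34 in SM control. Only the LG arrays of slide 3 were below 0 among these 8. HDAC2 had 0.96 and -0.87 in LG GDNF, against 0.55 and 0.65 in LG control, with the lowest value on LG GDNF 3, and 0.39 and 0.35 in SM GDNF, against 0.90 and -0.24 in SM control. HDAC3 had 0.14 and 0.25 in LG GDNF, against -0.12 and -0.48 in LG control, its largest size, 0.49 (standard error 0.23, unadjusted p = 0.0782), and the opposite side on slide 1 as deposited. HDAC5, a class IIa deacetylase, had the smallest p of the family. It had -0.23 and 0.22 in LG GDNF, against 0.31 and 0.66 in LG control, on slides 2 and 3, and -0.062 in LG GDNF, against 0.41 in LG control, on slide 1. LG GDNF lay below LG control on all 3 slides as deposited, with a size of 0.49 (standard error 0.20, unadjusted p = 0.0519) and an adjusted p in limma of 0.884. The size was between 0.41 and 0.57 with single arrays left out, 0.48 on all 12 arrays as deposited (unadjusted p = 0.0076) and 0.17 with slide 1 turned (0.48). In SM it had -0.0095 and 0.014 in SM GDNF, against 0.031 and 0.55 in SM control, a size of 0.29 (standard error 0.20, unadjusted p = 0.201). That size was 0.08 without SM GDNF 2, 0.17 without SM control 3 and 0.50 without SM GDNF 3. HDAC9 and HDAC11 had sizes of at most 0.29 in the 4 comparisons between groups. HDAC8 and HDAC10 were among the steadiest members, with SDs of 0.12 and 0.10 over the 8 arrays.

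Among the demethylases, KDM3A, which removes a repressive methyl mark, was the 1 of 10 members with an unadjusted p under 0.05 in LG. It had 0.44 and 0.22 in LG GDNF, against -0.086 and -0.75 in LG control, and -0.088 in LG GDNF, against -0.62 in LG control, on slide 1, with LG GDNF above LG control on all 3 slides as deposited. The size was 0.75 (standard error 0.28, unadjusted p = 0.0355), and 0.44 without LG control 2. One of its 2 features carried it, with 0.71 and -0.062 in LG GDNF, against -0.63 and -1.55 in LG control, while the other had 0.18 and 0.51 in LG GDNF, against 0.45 and 0.059 in LG control. KDM1B, needed for maternal imprints in mouse oocytes, had sizes of at most 0.057, with a standard error of 0.29. Its relative KDM1A, of the CoREST complex, had at most 0.17 (0.20), but as a mean over 6 features whose pairwise r ran from -0.81 to 0.93. KDM5B, which removes an activating promoter mark, had 0.49 and -1.14 in LG GDNF, against 0.79 and 0.50 in SM GDNF, a size of 0.97 (standard error 0.49, unadjusted p = 0.0975) that lay mostly on slide 3. KDM6A, a demethylase of the Polycomb mark, had -0.17 and 0.89 in LG control, against -0.77 and -0.16 in SM control, and 0.45 in LG control, against -0.52 in SM control, on slide 1. LG control was above SM control on all 3 slides as deposited, with a size of 0.82 (standard error 0.39, unadjusted p = 0.0795). KDM2A, KDM3B, KDM4B, KDM5A and KDM5C had sizes of at most 0.48 in the 4 comparisons between groups.

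The remodelling subunits, 13 SMARC and 9 CHD genes, had no member with an unadjusted p under 0.05 in any comparison, beside 1.18% to 5.13% of all genes. SMARCA4, the SWI/SNF ATPase whose maternal supply is needed by the mouse embryo, had -0.33 and -0.78 in SM GDNF, against -0.51 and 0.11 in SM control, and -1.06 in SM GDNF, against 0.0021 in SM control, on slide 1. In LG it had -0.59 and 0.0034 with GDNF, against -0.28 and 0.52 in control. On slides 2 and 3 the GDNF array was below the control array in LG. In SM this held on slide 3 and, as deposited, on slide 1, but not on slide 2. The alternative ATPase SMARCA2 had sizes of at most 0.36 (0.22), the ISWI ATPase SMARCA5 0.47 (0.27) and the core subunit SMARCB1 0.52 (0.22, unadjusted p = 0.0564 in LG). SMARCB1 had -0.027 and 0.34 in LG GDNF, against -0.26 and -0.46 in LG control, with most of the difference on slide 3. SMARCA1, SMARCAD1, SMARCAL1, SMARCC1, SMARCC2, SMARCD1, SMARCD2, SMARCD3 and SMARCE1, the remaining SMARC members, had sizes of at most 0.60. SMARCD3 was below 0 on all 12 arrays, between -1.23 and -0.13. CHD4, the NuRD ATPase, had -0.25 and -0.015 in LG GDNF, against 0.37 and 0.32 in LG control, a size of 0.48 (standard error 0.26, unadjusted p = 0.113). LG GDNF was below LG control in CHD4 on all 3 slides as deposited, with a size of 0.49 on slide 1. The same held for SMARCD2, an accessory SWI/SNF subunit, with -0.042 and 0.53 in LG GDNF, against 0.59 and 0.80 in LG control, and a size of 0.45 (standard error 0.24, unadjusted p = 0.111). CHD1, which binds a methylated histone at active promoters, had at most 0.17 (0.26), and CHD6 had 0.25 for GDNF in SM (unadjusted p = 0.264; 0.12 without SM GDNF 2, 0.17 without SM control 2 and 0.39 without SM GDNF 3). CHD1L, CHD2, CHD3, CHD5, CHD7 and CHD8 had sizes of at most 0.62. CHD8 had the smallest SD of the members, 0.088, followed by 0.10 for SIRT6.

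GDNF and control in SM had the smallest median size of the 4 comparisons between groups, 0.12 over the members, against 0.14 over all genes. The median difference was -0.042 over the members, against -0.0096 over all genes, but 0.013 without SM GDNF 2 and -0.13 without SM GDNF 3. The largest size was 0.44. The difference lay on the same side on slides 2 and 3 in 22 of the 68 members, or 32.4%, against 37.1% of all genes, and 0 members had at least 0.5 on both, against 0.537%. Between LG and SM controls the median size was 0.27 over the members, against 0.18 over all genes, and the median difference -0.042 over the members, against 0.0088 over all genes. Without LG control 2 that median over the members was 0.039, and without SM control 3 0.064, so its sign rests on single arrays. There 38 members lay on the same side on both slides (55.9%, against 46.2%), and 6 with at least 0.5 on both (8.82%, against 4.4%). The count of 4 members between controls rose or fell with single arrays left out, and the share of all genes moved as well. Such fits leave 1 array in a group. Between LG and SM with GDNF the median size was 0.16 over the members, against 0.16 over all genes, and the median difference 0.041 over the members, against 0.0036 over all genes. Without LG GDNF 3 that median over the members was -0.033, and without SM GDNF 2 -0.051. Here 24 members lay on the same side (35.3%, against 45.5%) and 0 with at least 0.5 on both slides, against 2.28%. After DNMT1 the smallest p in that comparison belonged to KAT2A with 0.43 (standard error 0.19, unadjusted p = 0.0698), SETD2 with 0.37 (standard error 0.17, unadjusted p = 0.0738) and BRD8 with 0.49 (standard error 0.23, unadjusted p = 0.0835). In each of these 3 the LG array lay on the same side of the SM array on all 3 slides as deposited.

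Whether the GDNF difference was the same in both classes was tested as an interaction, the difference in LG minus that in SM. Its median size was 0.26 over the members, against 0.25 over all genes. The interaction lay on the same side on slides 2 and 3 in 34 members (50%, against 43.9%), and 9 had at least 0.5 on both slides (13.2%, against 7.22%). The 4 members with an unadjusted p under 0.05 were KAT2A with 0.77 (standard error 0.28, unadjusted p = 0.0319), SETDB1 with 1.62 (standard error 0.61, unadjusted p = 0.0384), SIRT1 with 0.73 (standard error 0.29, unadjusted p = 0.045) and KAT5 with 1.85 (standard error 0.75, unadjusted p = 0.0479). Their adjusted p in limma was 0.994. With an array left out, SETDB1 had 1.01 without SM GDNF 3 and 1.02 without LG control 2, and KAT5 had 1.14 without LG control 2 and 1.18 without SM GDNF 3. All 4 had sizes of at least 0.64 on both slides, on the same side. On slide 1 the sizes were 0.47 for KAT2A and 0.27 for SIRT1, on that side as deposited, and 0.49 for SETDB1 and 1.27 for KAT5, on the other. The number of members with an unadjusted p under 0.05 in the interaction rested on single arrays. Leaving 1 array out took it down to none in some fits and raised it in others, and the share of all genes moved as well. Such fits leave 1 array in a group.

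**Figure D5:**
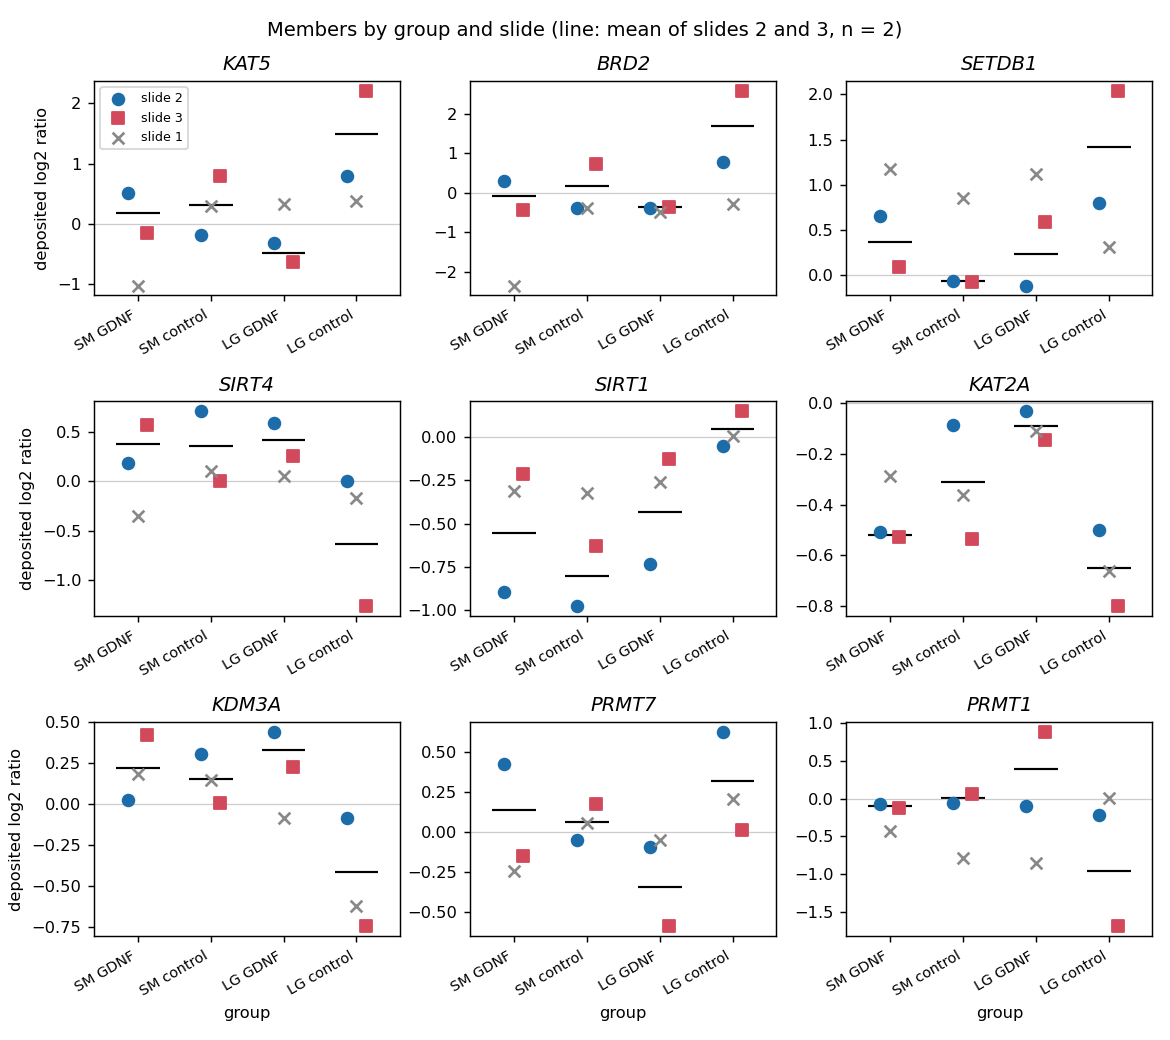
Deposited log2 ratio of 9 members by group, with slide 2 as circles, slide 3 as squares and slide 1 as crosses, and the mean of slides 2 and 3 (n = 2) as a line. LG control stands away from the other groups on slide 3 in KAT5, BRD2, SETDB1, SIRT4 and PRMT1. The LG difference in KAT2A is of like size on all 3 slides, with slide 1 on the same side as deposited.

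The members differed widely in how much they varied. The median SD over the 8 arrays, slide means taken off, was 0.26 over the members, against 0.24 over all genes, and 39 of 68 members lay above that median of all genes. Without LG control 2 and LG GDNF 3 the medians were 0.216 and 0.215. After SETD5 the widest members were BRD2 (1.07), KAT5 (0.96), PRMT1 (0.77) and SETDB1 (0.76). On slide 1 alone the SDs of these 5 were 0.05 for SETD5, 0.98 for BRD2, 0.68 for KAT5, 0.40 for PRMT1 and 0.40 for SETDB1, so SETD5 was narrow there and BRD2 and KAT5 were not. Features of the same gene often differed: over the 33 members with several features the median r between features was 0.11, against 0.13 over the 3326 such genes, and 6 of the 33 exceeded 0.5 (18.2%, against 22.8%). The highest were PRMT1 (0.96), SIRT4 (0.89) and SMARCAD1 (0.65), and the lowest KDM5A (-0.40), KDM1A (-0.38) and CHD6 (-0.20).

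Other chromatin genes, listed by function and outside the 10 families (Polycomb, TET, KMT2 and histone chaperone genes among them, 74 measured), were counted the same way. Of them 1 (1.35%) had an unadjusted p under 0.05 for GDNF in SM, 6 (8.11%) in LG and 5 (6.76%) between controls. With GDNF 0 had one, and in the interaction 4 (5.41%). The shares of all genes were 1.18%, 5.13%, 4.48%, 1.79% and 3.44% in this order, and 0 of the 74 passed after adjustment in limma. Their median size in LG was 0.28, against 0.18 over all genes. Cumulus and granulosa markers had 0 of 15 at that p in either GDNF comparison, with a median difference of -0.11 in LG and -0.019 in SM. Oocyte markers had 2 of 13 in LG and 0 of 13 in SM, with median differences of -0.21 in LG and 0.041 in SM. Markers of theca, stroma and blood (9 measured) had 1 in LG and 0 in SM. Beside these short marker lists stand 5.13% of all genes in LG and 1.18% in SM. Between LG and SM controls, 2 oocyte, 0 cumulus and granulosa and 1 theca, stroma and blood marker had such a p, against 4.48% of all genes. Between LG and SM with GDNF the numbers were 1, 1 and 0, against 1.79%. Median differences of oocyte markers were 0.43 between controls and 0.19 with GDNF. Those of cumulus and granulosa markers were -0.063 and -0.19, with a largest size of 1.88 with GDNF.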

How the data were processed

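Each of 12 two-colour arrays compared a pool of porcine oocytes with a common reference, per the labels. The authors deposited 1 log ratio per feature, treated here as a log2 ratio, for 45220 features. What base and direction the ratios have, and how background and scale were treated, is not given in the sources used here; array medians lay between -0.011 and 0.022. No intensities were used. The array number limits the precision. Symbols came from the platform annotation (18121 features with 1 symbol, 0 with several, 27099 with none) and were updated through RefSeq accessions (2534 kept, 124 changed), current symbols (15218) and synonyms (241), with 4 kept as they were. Features were averaged per gene. Differences were fitted with limma 3.58.1 in R 4.3.3 (groups and slide, 8 arrays, 3 residual degrees of freedom, two-sided, Benjamini-Hochberg adjustment). Named are 26 genes chosen by role (21 measured, KAT8 outside the rule, the rest not analysed here), the 4 members of smallest p in each comparison, the 5 widest and 3 narrowest, and those whose features agree most and least. KDM3A, PRMT1, PRMT7, SETD5, SETD1A, SETD1B, KDM6A and others beside them were named after their values were seen. Members and lists were chosen with earlier results of these data known. Same-numbered pools deviated together in 9 of 18 pairs (r over 0.1). Some pools of unlike number did so too, such as SM GDNF 3 and LG GDNF 1 (0.34), so this count cannot decide on a pairing. The number was not taken as a pairing in the main fit. Without LG control 2 and LG GDNF 3, however, same-numbered arrays of slides 2 and 3 correlated at 0.60 to 0.84 over all features. Arrays of unlike number correlated at 0.39 to 0.57 there. What same-numbered arrays share was not tested, and the slide term does not hold it. Alternatives covered slide 1, blocks, normalization, features, filters, weights and single arrays.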

Additional observations from a re-analysis of the deposited data

Results flagged for a closer look

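A difference between the GDNF contrasts of LG and SM, tested as an interaction with an unadjusted p under 0.05, singled out 4 members, none of which passed the adjustment (limma, adjusted p = 0.994 for each). KAT2A had a size of 0.77 (standard error 0.28), from a GDNF difference of 0.56 in LG and -0.21 in SM. SETDB1 had 1.62 (0.61), from -1.18 in LG and 0.44 in SM. SIRT1 had 0.73 (0.29), from -0.48 in LG and 0.25 in SM. KAT5 had 1.85 (0.75), from -1.98 in LG and -0.13 in SM. With an array left out, SETDB1 was at 1.01 (SM GDNF 3) or 1.02 (LG control 2), and KAT5 at 1.14 (LG control 2) or 1.18 (SM GDNF 3). Both had the opposite sign on slide 1 as deposited. Such a p was reached by 5.88% of the members and 3.44% of all genes. No group held enough arrays to test single arrays as outliers.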

How the results depend on the processing

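The number of members with an unadjusted p under 0.05 moved with several choices. For GDNF in SM it was 0, but 3 on all 12 arrays as deposited, 1 with slide 1 turned in sign, and between 0 and 2 with single arrays left out. For GDNF in LG it was 8, but 5 with slide 1 turned, between 0 and 9 with single arrays left out, and 0 without LG control 2 and LG GDNF 3 together, an alternative chosen after seeing the data, as were slides 2 and 3 alone. Between controls it was 4, between 1 and 12 with single arrays left out, and 2 without both of those arrays. With GDNF, LG against SM, it was 1, but 3 on 12 arrays as deposited, 0 without a slide term, 2 after quantile normalization, between 0 and 4 with single arrays left out, and 0 without both. For the interaction it was 4, but 2 with the feature of highest mean absolute ratio per gene, between 0 and 8 with single arrays left out, and 1 without both. With the pool number as a replicate block in place of the slide, the count was 0 (against 2.09% of all genes) for LG against SM with GDNF. It was 2 (against 4.29%) for the interaction, and the block moved no other count by over 1.5 times. Deviations of same-numbered pools from their group means correlated at -0.50 to 0.58. Members passing the adjusted threshold numbered 0, and between 0 and 1 with single arrays left out for GDNF in LG and between controls (SETD5 both times, without LG control 3). Median centring, the median of features and array weights (equal within a group) changed no count by over 1.5 times. Without genes of low spread 40 members were left, of which 6 (15%, against 7.64% of the genes left) had such a p for GDNF in LG. Between controls 6 had one (15%, against 6.36%), and for the interaction 3 (7.5%, against 3.59%). The median difference between controls over the members left was 0.18. This filter used the SD over the same 8 arrays, group differences included, so it rests on the values tested. Its shares and median are therefore no independent check. The median difference over the members changed sign with single arrays left out in 4 comparisons, with -0.13 to 0.013 for GDNF in SM, -0.062 to 0.064 between controls, -0.051 to 0.066 for LG against SM with GDNF and -0.094 to 0.099 for the interaction; for GDNF in LG it was -0.11 to -0.013.

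On slide 1 alone, whose sign is unsettled, 7 differences had the opposite sign: 0.33 for SETD4 in SM, -0.86 for PRMT1 and 0.81 for SETDB1 for GDNF in LG, -0.55 for SETDB1 between controls, -1.24 for DNMT1 with GDNF, and 0.49 for SETDB1 and 1.27 for KAT5 in the interaction. The causes were not tested. Of 524 values of single genes under the alternatives, 7 reversed in sign, all on slide 1 alone. A further 24, from slides taken singly, moved by at least the standard error. The other 493 kept their sign, and where a test was made they stayed on the same side of the adjusted threshold. That does not mean a like size. PRMT1 for GDNF in LG ran from 0.44 to 2.27 with single arrays left out, against 1.35 in the fit. With 2 arrays per group and 3 residual degrees of freedom, a difference near its standard error cannot be told from the spread between pools. Signal over background was not used here, so ratios near the background cannot be told from others.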
